A study of Saccharomyces cerevisiae with 2 samples.

Results

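The genes of Saccharomyces cerevisiae with an autophagy (ATG) name were taken as every gene whose name in the expression tables is ATG followed by a number, and 28 of 6716 genes met that rule. They lie on 13 chromosomes, and positions are those of the coding sequences in RefSeq for the R64 (sacCer3) genome. They were measured by RNA sequencing in 2 libraries, 1 from a Chinese rice wine strain and 1 from the laboratory strain BY4741. The rice wine strain is a haploid from a domesticated brewing lineage and is named YHJ8 in its sample label, with the title DY1, and YHJ7 in the paper. BY4741 is a haploid derivative of the reference strain S288c, MATa, and by its label carries leu2△0 and ura3△0 together with lys2△0 and his△1. Both strains were inoculated at an OD600 of 0.05 in 25 mL of YPD, a rich medium. By the paper's account the cells were harvested in early stationary phase. RNA of biological replicate cultures was pooled within a strain before sequencing. Each strain therefore has 1 value per gene, no spread between cultures can be computed, and no test between the strains was made. The strain, the growth state at harvest, the library, and differences in cell number against differences in RNA per cell cannot be told apart in these values.

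Autophagy carries cytoplasm and selected cargo to the vacuole inside double-membrane autophagosomes, where hydrolases degrade it. In yeast the Atg1 kinase complex starts the process, a phosphatidylinositol 3-kinase complex marks the membrane, Atg9 vesicles and lipid transfer supply it, and conjugation systems link Atg8 to lipid and Atg12 to Atg5. Cargo receptors tie Atg8 to mitochondria, peroxisomes, endoplasmic reticulum or the precursor of the vacuolar aminopeptidase Ape1. The Ape1 precursor travels by the cytoplasm-to-vacuole targeting (Cvt) pathway, which also runs in rich medium.

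The rice wine library held 8168593 fragments on genes, with 6347 genes above 3 fragments, and the BY4741 library held 10218733, with 6488 genes above 3, as recovered from the deposited estimated counts. The strain of each table was taken from its column heading, which is opposite to the sample that the table was attached to, and every sign given here would turn round if the attachment were followed. The authors' deposited comparisons name the strains in each row and follow the direction of the headings. Of 357 genes at least 4-fold apart under the headings, and with a difference in those comparisons, 344 had the same direction there, as had 27 of the 28 ATG genes. LEU2, URA3 and MET17, the last of them absent from the label, were listed at 0 FPKM (Cufflinks' count of fragments scaled by transcript length and library size) in the BY4741 column, against 64.2, 154.6 and 25.7 FPKM in the rice wine column. HIS3 had 187.8 FPKM in the rice wine column and 91.6 FPKM in the BY4741 column. LYS2 went against the label of BY4741, with 26.1 FPKM and 1348 fragments there, beside 25.3 FPKM and 830 fragments in the rice wine column.

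Most of the 28 ATG genes had lower levels in the rice wine library. The receptors for selective cargo and the genes acting in the vacuole had higher levels. Of 11 further genes with an ATG name in RefSeq alone, 8 were higher and 3 lower. The balance between the directions therefore depends on which names are counted. On the log2(FPKM + 1) scale, 10 of the 28 genes (35.7%) were higher in the rice wine library, against 49.6% of all genes, and 18 (64.3%) were lower, against 49.2% of all genes. At least 1.5-fold differences were held by 3 genes in the higher direction (10.7%, against 22.4% of all genes) and by 6 in the lower direction (21.4%, against 19.1%). At least 2-fold differences were held by ATG22 alone in the higher direction (3.57%, against 12.4% of all genes) and by ATG16 and ATG20 in the lower direction (7.14%, against 9.84%). No ATG gene differed by 4-fold on that scale. The shares past 2-fold and 1.5-fold were thus below those of all genes in the higher direction and near them in the lower direction.

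The median difference of the ATG genes was -0.27, against 0 for all genes, with an interquartile range of 0.75 for the ATG genes and 0.95 for all genes. When both libraries were rescaled to the same FPKM total, which moved the median of all genes to -0.19, 7 ATG genes were higher and 21 lower, against 38.1% and 60.7% of all genes, and the median of the ATG genes was -0.47. ATG22 then fell short of 2-fold, with a difference of 0.92, and ATG14 passed it in the lower direction, with -1.19. Counting error was small for most members: all 28 had more than 3 fragments in both libraries, from 10.1 to 2910 in the rice wine library and from 56.0 to 2810 in the BY4741 library. The 95% Clopper-Pearson counting interval of the log2 ratio of FPKM lay above 0 for 9 ATG genes (32.1%, against 38.8% of the 6304 genes with more than 3 fragments in both libraries) and below 0 for 16 (57.1%, against 33.4%), and included 0 for ATG3, ATG10 and ATG21. At this depth the interval of most genes left out 0, and these intervals cover counting error only and say nothing of the spread between cultures.

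**Figure D1:**
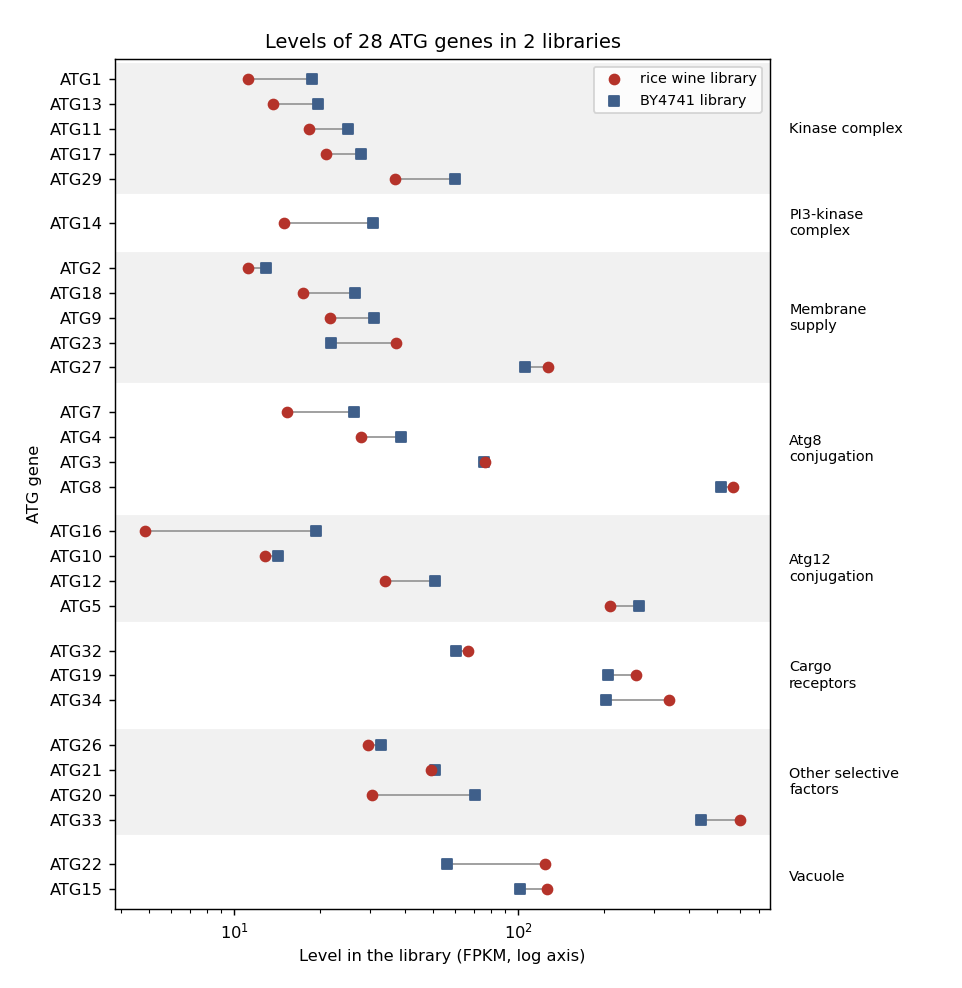
Level of each ATG gene in FPKM (log axis) in the rice wine library (circles) and in the BY4741 library (squares), with genes ordered by role and then by mean level. Levels ran from 4.86 FPKM for ATG16 to 601.7 FPKM for ATG33 in the rice wine library, and from 13.0 FPKM for ATG2 to 515.0 FPKM for ATG8 in the BY4741 library.

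The order of the levels was largely shared by the libraries, with a Spearman correlation of 0.93 over the 28 genes, given as a description of genes measured in the same libraries. ATG33 and ATG8 had the highest levels in both. The other genes above 200 FPKM in both were ATG34, ATG19 and ATG5. ATG1, ATG2, ATG10, ATG13 and ATG16 had less than 20 FPKM in both libraries. ATG23 moved most in this order, being number 12 of the 28 in the rice wine library and number 23 in the BY4741 library.

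All 5 genes of the Atg1 kinase complex and its scaffolds were lower in the rice wine library, against 49.2% of all genes. Their median difference was -0.50 on the log2(FPKM + 1) scale. ATG1 (YGL180W, chrVII:160065-162758, plus strand), which encodes the kinase that starts autophagosome formation, had 11.1 FPKM from 229 fragments in the rice wine library and 18.7 FPKM from 605 fragments in the BY4741 library, a log2 ratio of -0.75 (95% counting interval -0.97 to -0.53). ATG13, its regulatory subunit and a target of the TORC1 kinase, had 13.7 FPKM from 227 fragments in the rice wine library and 19.7 FPKM from 516 fragments in the BY4741 library, a log2 ratio of -0.53 (-0.76 to -0.30). ATG17, the scaffold used in starvation, had 21.0 FPKM from 182 fragments in the rice wine library and 27.8 FPKM from 380.0 fragments in the BY4741 library, a log2 ratio of -0.41 (-0.67 to -0.15). Kinase, regulator and scaffold thus lay on the same side, each with an interval below 0.

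ATG11, the scaffold of selective autophagy, had 18.4 FPKM from 506 fragments in the rice wine library and 25.1 FPKM from 1087 fragments in the BY4741 library, a log2 ratio of -0.45 (-0.61 to -0.30). ATG29, a partner of Atg17, had 36.9 FPKM from 134 fragments in the rice wine library and 59.9 FPKM from 342 fragments in the BY4741 library, a log2 ratio of -0.70 (-0.998 to -0.406). ATG29 shares its deposited locus with SET6. Whether the counting used strand is not given in the sources used here, so reads of these neighbours may be split between them. SET6 had 38.2 FPKM in the rice wine library and 58.6 FPKM in the BY4741 library, and the fragments of both genes together gave a log2 ratio of -0.64 (-0.81 to -0.48). The third subunit of the Atg17 scaffold, ATG31, is named CIS1 in the tables and had 61.6 FPKM in the rice wine library and 92.6 FPKM in the BY4741 library. With it, 6 of 6 genes of the complex were lower in the rice wine library, against 49.2% of all genes.

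ATG14 (YBR128C, chrII:493081-494115, minus strand), which brings the phosphatidylinositol 3-kinase complex to the site of autophagosome formation, had 15.0 FPKM from 103 fragments in the rice wine library and 30.7 FPKM from 332 fragments in the BY4741 library. The log2 ratio was -1.04 (95% counting interval -1.37 to -0.71), and on the log2(FPKM + 1) scale the difference of -0.99 fell just short of 2-fold. ATG38, the other autophagy-specific subunit, listed as YLR211C, had 29.1 FPKM in the rice wine library and 57.1 FPKM in the BY4741 library. VPS30, also called ATG6 and shared with the complex that sorts vacuolar proteins, had 18.3 FPKM in the rice wine library and 15.2 FPKM in the BY4741 library. VPS34, the catalytic subunit of both complexes, had 24.8 FPKM in the rice wine library and 22.2 FPKM in the BY4741 library. The genes of the autophagy-specific subunits were therefore about 2-fold lower in the rice wine library. Those of the shared subunits were split. VPS30 had a log2 ratio of 0.27 (0.01 to 0.52) and VPS34 of 0.16 (-0.01 to 0.33). VPS15, also shared, had 5.10 FPKM in the rice wine library and 7.07 FPKM in the BY4741 library. Its log2 ratio was -0.47 (-0.74 to -0.21).

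The genes for membrane supply were split, with 3 lower and 2 higher. ATG9, a transmembrane lipid scramblase carried on vesicles, had 21.8 FPKM from 502 fragments in the rice wine library and 31.1 FPKM from 1126 fragments in the BY4741 library, a log2 ratio of -0.51 (-0.67 to -0.36). ATG18, a phosphoinositide-binding protein, had 17.4 FPKM from 187 fragments in the rice wine library and 26.6 FPKM from 449 fragments in the BY4741 library, a log2 ratio of -0.61 (-0.86 to -0.36). ATG2, its partner and a lipid transfer protein, had 11.2 FPKM in the rice wine library and 13.0 FPKM in the BY4741 library. The transport genes of Atg9 lay on the other side of 0. ATG23 (YLR431C, chrXII:1000342-1001703, minus strand), a peripheral membrane protein needed for Atg9 vesicle formation, had 37.2 FPKM from 356 fragments in the rice wine library and 21.9 FPKM from 329 fragments in the BY4741 library, a log2 ratio of 0.77 (0.55 to 0.99). ATG27, a transmembrane protein of Atg9 transport, had 127.3 FPKM in the rice wine library and 105.4 FPKM in the BY4741 library.

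ATG8 (YBL078C, chrII:80378-80731, minus strand), which encodes the ubiquitin-like protein joined to phosphatidylethanolamine on the growing membrane, was among the most abundant ATG transcripts and differed little. It had 571 FPKM from 722 fragments in the rice wine library and 515.0 FPKM from 1023 fragments in the BY4741 library, a log2 ratio of 0.15 (0.01 to 0.29). Under the same FPKM total its difference was -0.06, so its direction depends on the scaling. The promoter of ATG8 is shown because it was the single ATG promoter with matches to all 4 motifs searched, those of regulators of ATG genes. The motifs were GATAAG of the GATA factors Gln3 and Gat1, GGCGGC at the core of the URS1 element bound by Ume6, AGGGG of Msn2, Msn4 and Rph1, and TGACTC of Gcn4, each on both strands. The stretch runs from 250 to 51 bases before the start codon, at chrII:80782-80981 on the minus strand of the R64 (sacCer3) genome from RefSeq, and capitals mark the matches, with 2 overlapping GGCGGC matches in 1 run and TGACTC read as GAGTCA from the other strand.
ATG8: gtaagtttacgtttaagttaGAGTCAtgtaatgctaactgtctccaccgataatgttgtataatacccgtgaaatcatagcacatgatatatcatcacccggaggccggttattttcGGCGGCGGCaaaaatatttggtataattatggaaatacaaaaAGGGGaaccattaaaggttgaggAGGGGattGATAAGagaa

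Of the enzymes that act on Atg8, the protease and the activating enzyme were lower in the rice wine library. ATG7, the E1-like enzyme of both conjugation systems, had 15.3 FPKM from 214 fragments in the rice wine library and 26.4 FPKM from 579 fragments in the BY4741 library, a log2 ratio of -0.78 (-1.02 to -0.55). ATG4, the protease that processes Atg8 and frees it from lipid, had 27.9 FPKM in the rice wine library and 38.7 FPKM in the BY4741 library. ATG3, the E2-like enzyme of Atg8, had 76.1 FPKM in the rice wine library and 75.7 FPKM in the BY4741 library, a log2 ratio of 0.01 (-0.16 to 0.18). ATG3 and ATG8 were the higher genes of this group of 4 with the values as deposited, and under the same FPKM total all 4 were lower.

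All 4 genes of Atg12 conjugation were lower in the rice wine library, against 49.2% of all genes. Their median difference was -0.45 on the log2(FPKM + 1) scale. ATG16 (YMR159C, chrXIII:574476-574928, minus strand), which binds the Atg12-Atg5 conjugate and was the ATG gene of lowest level in the rice wine library, had 4.86 FPKM from 10.1 fragments in the rice wine library and 19.3 FPKM from 63.1 fragments in the BY4741 library. Its log2 ratio of -1.99 had the widest counting interval of all 28 genes, -3.12 to -1.02. ATG16 shares its deposited locus with YMR158W-B, which had 19.9 FPKM in the rice wine library and 33.6 FPKM in the BY4741 library. The fragments of both together gave a log2 ratio of -1.30 (-1.93 to -0.71). In the table of the authors' comparisons ATG16, not joined to another gene there, had 20.1 FPKM in the rice wine library and 39.2 FPKM in the BY4741 library. The lower level in the rice wine library was thus present in each count, and its size differed between them.

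ATG12, the ubiquitin-like protein itself, had 34.1 FPKM in the rice wine library and 50.8 FPKM in the BY4741 library. ATG5, its target, had 209.3 FPKM in the rice wine library and 264.9 FPKM in the BY4741 library, a log2 ratio of -0.34 (-0.44 to -0.24). ATG10, its E2-like enzyme, had 12.8 FPKM from 32.0 fragments in the rice wine library and 14.3 FPKM from 56.0 fragments in the BY4741 library, a difference within the counting interval of -0.83 to 0.50. ATG5 had a level of over 200 FPKM and its partners ATG10, ATG12 and ATG16 had 50.8 FPKM or less, so the genes of 1 conjugate differed more among themselves than between the libraries.

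All 3 cargo receptors were higher in the rice wine library, against 49.6% of all genes. ATG34 (YOL083W, chrXV:165714-166952, plus strand), the receptor of alpha-mannosidase Ams1 in starvation, had 340 FPKM from 2910 fragments in the rice wine library and 204 FPKM from 2742 fragments in the BY4741 library, a log2 ratio of 0.74 (0.66 to 0.81). ATG19 (YOL082W, chrXV:168727-169974, plus strand), the receptor of the Ape1 precursor and Ams1 in the Cvt pathway, had 259 FPKM from 2233 fragments in the rice wine library and 207 FPKM from 2810 fragments in the BY4741 library, a log2 ratio of 0.32 (0.24 to 0.40). ATG32 (YIL146C, chrIX:74184-75773, minus strand), the mitochondrial receptor, had 66.5 FPKM from 762 fragments in the rice wine library and 60.3 FPKM from 1086 fragments in the BY4741 library, a log2 ratio of 0.14 (0.01 to 0.28). The order of the differences was that of the levels in the rice wine library, and ATG32 changed sign, to -0.07, under the same FPKM total.

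ATG34 and ATG19 are neighbouring paralogs on chromosome XV, 1774 bases apart. Their coding sequences were 63.9% identical over 1115 aligned bases and shared no run of 25 bases. ATG34 also shares its deposited locus with YOL083C-A, which was listed at 0 FPKM in the rice wine library and at 72.4 FPKM from 8.52 fragments in the BY4741 library. The fragments of ATG34 and YOL083C-A together gave a log2 ratio of 0.73. ATG18 and ATG21 are a further pair of paralogs, with 65.0% identity and no shared run of 25 bases. The promoters of the receptors are shown because each held at least 1 of the 4 motifs, in capitals. The ATG19 stretch runs from 180 to 81 bases before the start codon (chrXV:168547-168646, plus strand), that of ATG34 from 200 to 151 bases (chrXV:165514-165563, plus strand) and that of ATG32 from 110 to 51 bases (chrIX:75824-75883, minus strand), all in R64. AGGGG appears in ATG19 and, as CCCCT, in ATG34. ATG19 also held GGCGGC 43 bases before the start codon, outside the stretch printed. ATG32 held 3 matches to GATAAG, of which 2 are read as CTTATC and the last adjoins the one before it.
ATG19: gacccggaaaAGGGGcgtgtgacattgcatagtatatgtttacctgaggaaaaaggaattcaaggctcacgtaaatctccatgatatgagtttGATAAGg
ATG34: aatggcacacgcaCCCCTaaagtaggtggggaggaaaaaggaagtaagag
ATG32: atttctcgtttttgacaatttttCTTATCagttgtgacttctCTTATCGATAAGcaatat

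The other factors of selective autophagy held the second largest difference of the set. ATG20 (YDL113C, chrIV:256633-258555, minus strand), a sorting nexin that acts in the Cvt pathway and in endosomal recycling, had 30.5 FPKM from 433 fragments in the rice wine library and 70.2 FPKM from 1567 fragments in the BY4741 library, a log2 ratio of -1.20 (-1.36 to -1.05). Its partner SNX4, also called ATG24, had 55.4 FPKM from 489 fragments in the rice wine library and 82.04 FPKM from 1139 fragments in the BY4741 library, a log2 ratio of -0.57 (-0.72 to -0.41). Both sorting nexins were therefore lower in the rice wine library, ATG20 more than 2-fold. A stretch of the ATG20 promoter, from 170 to 111 bases before the start codon (chrIV:258666-258725, minus strand, R64), is shown because it holds the single motif match of this gene, AGGGG read as CCCCT and given in capitals.
ATG20: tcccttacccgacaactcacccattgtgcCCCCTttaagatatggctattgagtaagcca

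ATG33 (YLR356W, chrXII:840321-840914, plus strand), a mitochondrial protein needed for the selective removal of mitochondria, had the highest level of all ATG genes in the rice wine library, 601.7 FPKM from 1948 fragments, against 439 FPKM from 2236 fragments in the BY4741 library, a log2 ratio of 0.45 (0.37 to 0.54). ATG21, a phosphoinositide-binding paralog of Atg18, had 49.5 FPKM in the rice wine library and 50.8 FPKM in the BY4741 library, a difference within counting error. ATG26, a sterol glucosyltransferase that acts in the degradation of peroxisomes in Komagataella phaffii (Pichia pastoris), had 29.5 FPKM in the rice wine library and 33.0 FPKM in the BY4741 library. In the mitochondrial branch both ATG32 and ATG33 were higher in the rice wine library with the values as deposited, ATG33 alone under the same FPKM total.

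The genes that act in the vacuole were higher in the rice wine library. ATG22 (YCL038C, chrIII:54941-56527, minus strand), a vacuolar membrane protein that exports amino acids released by degradation, had 123.9 FPKM from 1416 fragments in the rice wine library and 56.2 FPKM from 1010 fragments in the BY4741 library. Its log2 ratio of 1.14 (1.02 to 1.26) was the largest in the higher direction, and it was 2.20-fold higher in the rice wine library with the values as deposited. ATG15, the lipase that opens autophagic bodies, had 126 FPKM from 1416 fragments in the rice wine library and 101 FPKM from 1792 fragments in the BY4741 library, a log2 ratio of 0.31 (0.21 to 0.41). In the table of the authors' comparisons, where ATG15 is joined to a neighbouring gene, the difference was 0.05. ATG42, a carboxypeptidase listed as YBR139W, had 237.8 FPKM in the rice wine library and 166.3 FPKM in the BY4741 library. All 3 genes of this group were therefore higher in the rice wine library, against 49.6% of all genes.

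**Figure D2:**
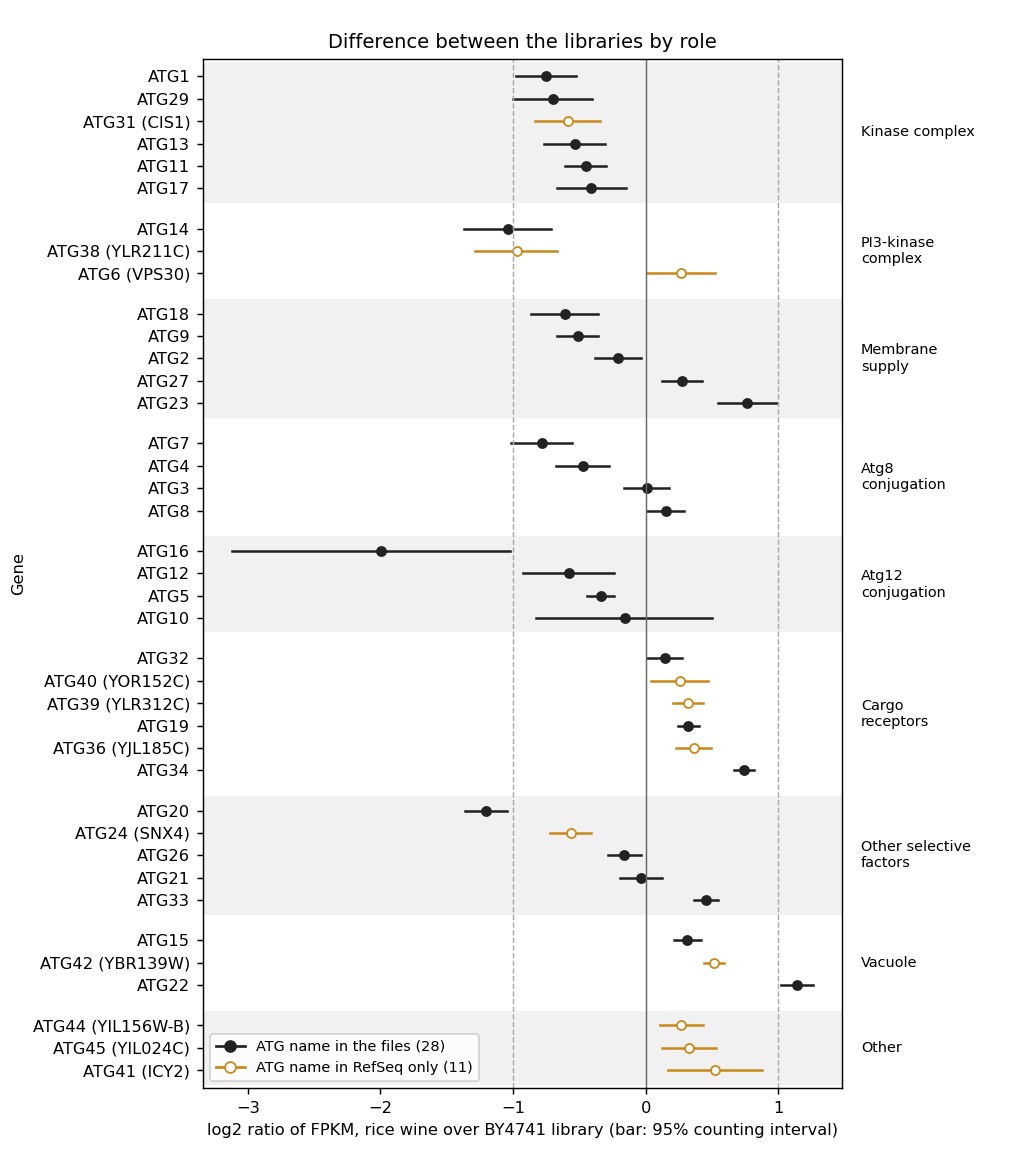
Log2 ratio of FPKM, rice wine over BY4741 library, for the 28 ATG genes (filled) and the 11 genes with an ATG name in RefSeq alone (open), grouped by role, with 95% counting intervals as bars and dashed lines at 2-fold. The genes of the kinase complex and of Atg12 conjugation lay to the left of 0, and the receptors and vacuolar genes to its right.

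A further 11 genes carry an ATG name in RefSeq and another name in the tables, a set listed after the tables had been seen. Of these, 8 were higher and 3 lower in the rice wine library, against 49.6% and 49.2% of all genes. Their median difference was 0.27 on the log2(FPKM + 1) scale, with none at 2-fold. Those among them listed as cargo receptors were all higher. ATG36, the peroxisome receptor listed as YJL185C, had 146.3 FPKM in the rice wine library and 113.9 FPKM in the BY4741 library. ATG39, the receptor of the nuclear envelope and endoplasmic reticulum listed as YLR312C, had 138.0 FPKM in the rice wine library and 110.5 FPKM in the BY4741 library. ATG40, the second receptor of the endoplasmic reticulum, listed as YOR152C, had 67.1 FPKM in the rice wine library and 56.2 FPKM in the BY4741 library. With these, 6 of 6 genes in the list of cargo receptors were higher in the rice wine library, against 49.6% of all genes. Their median difference was 0.32, ATG32 with the sign change given above. ATG44, listed as YIL156W-B, had 1607 FPKM in the rice wine library and 1334 FPKM in the BY4741 library, and is uncertain because it shares its locus with YIL156W-A and COA1.

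The direction of the difference went with the level of the gene. Of the 14 ATG genes with a mean below 40 FPKM, 13 were lower in the rice wine library, ATG23 being the exception, while 54.1% of all genes from 10 to 40 FPKM were lower. Of the 7 from 40 to 100 FPKM, 3 were higher and 4 lower, against 54.4% and 45.6% of all genes at that level. Of the 7 with at least 100 FPKM, 6 were higher in the rice wine library, ATG5 being the exception, while 61.8% of all genes at that level were higher. The Spearman correlation of the difference with the mean level was 0.63 over the 28 ATG genes and 0.18 over the 5671 genes with a mean of at least 10 FPKM, both given as descriptions since the genes share their libraries and the level enters both axes. The correlation with coding length was -0.13 over the ATG genes. The part of the level in the pattern by role was not tested.

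**Figure D3:**
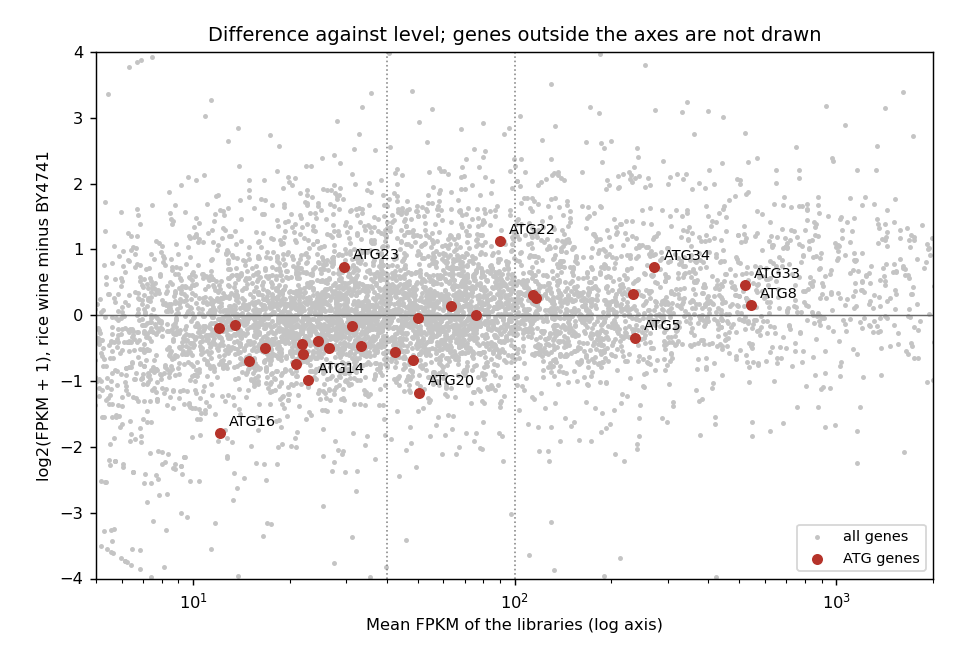
Difference on the log2(FPKM + 1) scale, rice wine minus BY4741, against the mean FPKM of both libraries (log axis) for all genes (grey) and the 28 ATG genes (red), with dotted lines at 40 and 100 FPKM. Below 40 FPKM 13 of 14 ATG genes lay under 0, and from 100 FPKM upwards 6 of 7 lay above 0.

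Other genes of the pathway were set beside the ATG genes. Of 9 vacuolar hydrolases and Cvt cargo proteins, 6 were higher and 3 lower in the rice wine library, with a median difference of 0.24 on the log2(FPKM + 1) scale. PRB1, vacuolar proteinase B, had 1947 FPKM in the rice wine library and 882 FPKM in the BY4741 library, a difference of 1.14. PRC1, carboxypeptidase Y, had 2828 FPKM in the rice wine library and 1529 FPKM in the BY4741 library, a difference of 0.89. PEP4, proteinase A, which activates the other hydrolases, had 2025 FPKM in the rice wine library and 1125 FPKM in the BY4741 library, a difference of 0.85. Other members of the list were lower in the rice wine library, with a difference of -0.19 for APE3, an aminopeptidase at 1632 FPKM in the rice wine library and 1856 FPKM in the BY4741 library, and of -0.40 for LAP3, a cysteine protease. LAP4, the Ape1 cargo of ATG19, had 147.9 FPKM in the rice wine library and 84.4 FPKM in the BY4741 library, and AMS1 had 205.8 FPKM in the rice wine library and 200.4 FPKM in the BY4741 library.

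Of 13 genes for fusion with the vacuole, 2 were higher and 11 lower, with a median of -0.27, and the counting interval lay above 0 for 1 gene, below 0 for 7 and included 0 for 5. The shares of all genes given above, 49.6% higher and 49.2% lower, hold beside each of these lists. For the intervals the shares were 38.8% above and 33.4% below 0, over genes with more than 3 fragments in both libraries. Among the hydrolases and Cvt cargo proteins 5 intervals lay above 0 and 2 below. Among the partners without an ATG name these were 4 and 4, and among the transcription regulators given below 2 and 4. VPS41, VPS16 and CCZ1, the first pair subunits of the HOPS tether and the last a part of the exchange factor of the GTPase Ypt7, had differences of -0.69, -0.66 and -0.53. Of 10 partners without an ATG name in the tables, 5 were higher and 5 lower, with differences of -1.12 for IRS4, -0.56 for SNX4 and 0.52 for ICY2. This list is not separate from the 11 genes with an ATG name in RefSeq alone, since VPS30, SNX4 and ICY2 (ATG41) are in both.

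Of 8 transcription regulators of ATG genes, 3 were higher and 5 lower in the rice wine library, with a median of -0.16. GCN4, the activator of amino acid synthesis genes, had 3667 FPKM in the rice wine library and 2004 FPKM in the BY4741 library, a difference of 0.87, and its protein is known to be controlled mainly in translation. GLN3, a GATA activator, and PHO23, a repressor of ATG9, had differences of -0.54 and -0.37. The 5 genes often used as references had a median of 0.10, but were not even among themselves, with -0.74 for TFC1, 0.61 for ACT1 and 0.72 for ALG9. Differences of the size seen for most ATG genes were therefore also present among genes used as references.

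**Figure D4:**
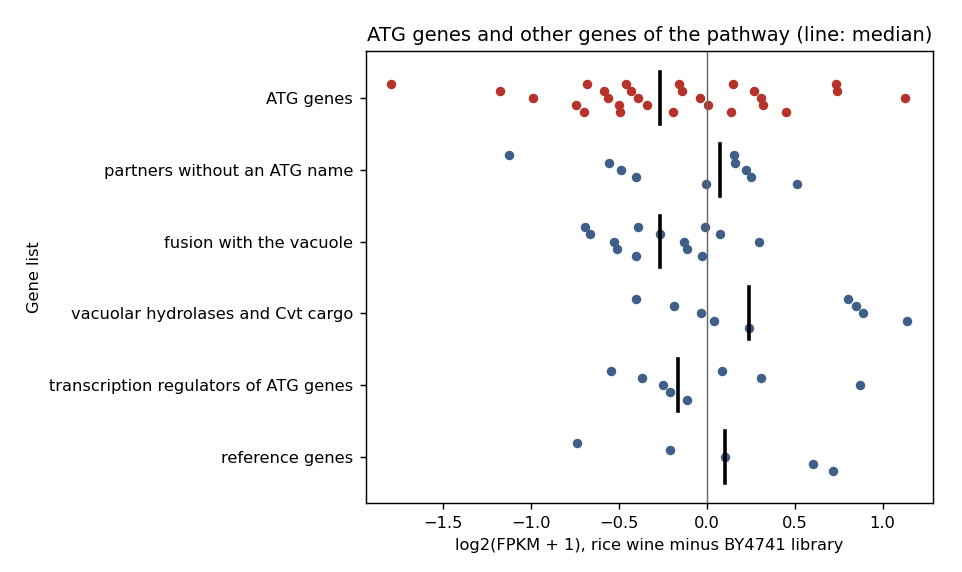
Difference on the log2(FPKM + 1) scale, rice wine minus BY4741 library, of each gene (points) in the ATG set (red) and in 5 lists of other genes (blue), with the median as a line. The medians ran from -0.27 for the fusion genes to 0.24 for the vacuolar hydrolases, and that of the ATG genes was -0.27.

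Promoter motifs were found in ATG genes of both directions. In windows from 250 bases before to 50 after the start codon, GATAAG was found in 9 of 28 ATG promoters (32.1%) and in 14.7% of 6002 promoters, GGCGGC in 2 (7.14%) and 5.13%, AGGGG in 7 (25%) and 21.6%, and TGACTC in 6 (21.4%) and 7.98%. The genes with GATAAG were ATG4, ATG8, ATG9, ATG15, ATG18, ATG19, ATG29, ATG32 and ATG33, of which ATG8, ATG15, ATG19, ATG32 and ATG33 were higher in the rice wine library and ATG4, ATG9, ATG18 and ATG29 lower. Of the genes that differed most, ATG20 held AGGGG alone, as printed above, and ATG14, ATG16, ATG22 and ATG23 held none of the motifs in this window. A match describes the letters of the reference genome, and the windows of the rice wine strain were not analysed here.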

How the data were processed

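RNA of pooled biological replicate cultures of the rice wine strain and of BY4741 was sequenced as 1 library per strain. Reads were aligned by the authors with TopHat2 2.0.4 against sacCer3, the S288c assembly, and Cufflinks 2.0.2 gave the expression values. Each deposited library table lists FPKM and an estimated count for every gene, both divided by 1 factor for the library. Reads of the rice wine strain were mapped to the reference of another strain, and what this costs at single genes was not measured. The fold changes and p-values in the table of the authors' comparisons were not used. The FPKM values of that deposited table served as an alternative alone, since some genes are joined to neighbours there. Among the ATG genes this held for ATG15 alone, while ATG16, ATG29 and ATG34, which share a locus with another gene in the library tables, were not joined.

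Strains were taken from the column headings. The row without a gene name held 0.309% of the estimated counts in the rice wine library and 0.806% in the BY4741 library and was left out. The worth of 1 fragment was taken as the largest step whose share of whole multiples among the counts lay within 0.1 of the highest share (1.25 for the rice wine library, 0.797 for the BY4741 library). In the rice wine library the share itself was highest at 0.418, a step that would give more fragments and narrower intervals. Within 0.03 of a fragment, 78.5% of values under 1000 were whole in the rice wine library and 78.1% in the BY4741 library, so fragment numbers are estimates and no count test was run. Differences are log2(FPKM + 1), rice wine minus BY4741, with a pseudocount of 1, which understates low genes. Log2 ratios are of FPKM without it, with 95% Clopper-Pearson intervals from the fragments. The step rule and the intervals were run on simulated counts that were all whole multiples of the worth already chosen. This checked the working of the code. It cannot test the choice of step for the deposited counts, part of which were not whole.

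All 28 genes were given with both FPKM values. Fragments and intervals were given for the 10 largest differences and for ATG1, ATG8, ATG9, ATG11, ATG13, ATG17, ATG19, ATG32 and ATG34, and the 3 largest differences were given for each list of other genes. A list of upstream kinases is not reported here. Values beyond this rule, and the promoter stretches printed, were chosen after they had been seen. The members and lists were chosen with earlier results of these data known. All 28 genes matched RefSeq (R64, which is sacCer3) and lay inside their deposited locus. Promoter letters were read from that genome. Python 3.11.15, pandas 2.3.3, SciPy 1.17.1 and Biopython 1.88 were used.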

Additional observations from a re-analysis of the deposited data

How the results depend on the processing

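No paired analysis was possible because 2 single libraries were compared. Leaving out a replicate was likewise not possible. The median difference of the ATG genes was -0.47 under the same FPKM total, a shift of -0.21 applied to every gene, and ATG22 was then no longer 2-fold higher, leaving 0 such genes. The 2 genes at least 2-fold lower became 0 with a pseudocount of 10, 1 with the FPKM of the authors' comparisons, and 3, with ATG14, with a pseudocount of 0.1, a median log2 ratio of 0 or the same FPKM total. At 1.5-fold 3 genes were higher and 6 lower, and at 4-fold 0 and 0. Of 196 alternative values of single genes, 175 moved by less than the counting error and 21 by more. The 196 include values under filters for a mean of at least 1 and of at least 10 FPKM. No ATG gene fell below either filter, so those values could not move, and the count of 175 overstates the stability. Of these 196, 5 had the other sign, in genes below 2-fold: under the same FPKM total ATG8 (-0.06), ATG32 (-0.07) and ATG3 (-0.20), and ATG3 also with a median log2 ratio of 0 (-0.01) and in the authors' comparisons (-0.04). The 25 intervals that left out 0 numbered 25 also with the step of highest share, an alternative chosen after seeing the data. Depth limits ATG10 and ATG16 most, with 32.0 and 10.1 fragments in the rice wine library.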
